A study of Mus musculus with 2 samples.

Results

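Genomic imprinting marks some genes so that mainly the copy inherited from 1 parent is transcribed, and the mark is carried by DNA methylation that is copied at each cell division by DNMT1, the maintenance DNA methyltransferase. Igf2, Dlk1, Peg10 and Nnat are imprinted genes that are transcribed from the paternal copy in most tissues. Igf2 encodes a secreted growth factor of the insulin family, which in the embryonic head is best known from mesenchyme, vessels, meninges and choroid plexus. Dlk1 encodes a transmembrane protein related to the Delta ligands of Notch, Peg10 encodes a protein derived from a retrotransposon, and Nnat encodes neuronatin, a small membrane proteolipid of developing neurons. These 4 of the 500 genes of the panel were chosen by name for their dependence on DNA methylation, and the rule used no measured value.

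The data came from MERFISH, an imaging method that counts single RNA molecules in place by repeated hybridisation. It was run on the MERSCOPE instrument on 1 coronal section of 10 µm from each of 1 control and 1 knockout embryo at E16.5. Heads had been flash-frozen whole, so that skin, bone and connective tissue were in the sections beside the brain. The control embryo carried Sst-Cre and the tdTomato reporter in the ROSA26 locus. The knockout embryo carried the same alleles and, in addition, the floxed Dnmt1 allele (Sst-Cre/tdTomato/Dnmt1 loxP2), for which the strain label names a mixed B6 and 129S line. The study's methods give C57BL/6 J as the background of both genotypes. Cre is driven by Sst, so that Dnmt1 can be lost only in cells that express Sst or did so before. The paper describes the cells in which the deletion is induced as postmitotic, that is, no longer dividing. The panel held no Dnmt1 or tdTomato probe, so the deletion could not be checked here. Expression from the maternal and the paternal copy could not be told apart, and DNA methylation was not measured.

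The control section had 108533 segmented cells and 2842355 panel transcripts, and the knockout section had 110004 cells and 13437174 transcripts. The median cell held 20 transcripts in the control section and 101 in the knockout section. Cells with at least 20 transcripts were kept, which left 55231 control cells (50.9%) and 101250 knockout cells (92.0%). Blank barcodes, which match no gene, made up 0.496% and 0.486% of the decoded transcripts assigned to cells. The sections shared 0 cell identifiers. With 1 section per genotype there was no replicate and no test, and genotype cannot be told apart from the embryo, the plane of the section or the imaging run. Levels are given as CPM, transcripts of a gene per 1000000 panel transcripts of the same cells. Over all kept cells the median blank barcode stood at 82.1 CPM in the control section and 87.5 CPM in the knockout section. The highest stood at 262 and 240 CPM. Intervals are exact 95% intervals that cover counting error only, Poisson for a level, binomial for a share and conditional binomial for a log2 ratio of knockout to control. The number of probes per gene was not given in the sources used here, so the level of 1 gene is not read against that of another. Levels of different genes were set side by side only to pick panel genes close in level to each member.

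The 4 genes lie on 4 chromosomes (GRCm39). Igf2 spans chr7:142204503-142220694 on the minus strand and overlaps Igf2os on the other strand. Dlk1 spans chr12:109418749-109429262 and Peg10 chr6:4747306-4760517, both on the plus strand. Nnat spans chr2:157401879-157404573 on the plus strand and overlaps Blcap on the other strand. The transcripts named in the molecule lists have 4 exons for Igf2, 6 for Dlk1, 2 for Peg10 and 3 for Nnat. Sequences around the RefSeq starts of Igf2, Dlk1 and Nnat, the 3 of 4 members matched in that table (Peg10 was not), are shown because the CG dinucleotide, here in capitals, is the site that DNMT1 methylates. Each runs from 250 bases before to 50 bases after a start given by RefSeq (GRCm38.p6), at chr7:142657447-142657746 on the minus strand for Igf2, chr12:109452573-109452872 on the plus strand for Dlk1 and chr2:157559828-157560127 on the plus strand for Nnat.

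Igf2: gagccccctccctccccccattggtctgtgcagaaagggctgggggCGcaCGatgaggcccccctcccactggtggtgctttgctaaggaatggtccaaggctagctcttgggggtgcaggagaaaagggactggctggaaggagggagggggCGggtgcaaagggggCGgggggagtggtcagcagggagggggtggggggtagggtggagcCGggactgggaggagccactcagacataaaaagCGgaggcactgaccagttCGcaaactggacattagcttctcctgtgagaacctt

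Dlk1: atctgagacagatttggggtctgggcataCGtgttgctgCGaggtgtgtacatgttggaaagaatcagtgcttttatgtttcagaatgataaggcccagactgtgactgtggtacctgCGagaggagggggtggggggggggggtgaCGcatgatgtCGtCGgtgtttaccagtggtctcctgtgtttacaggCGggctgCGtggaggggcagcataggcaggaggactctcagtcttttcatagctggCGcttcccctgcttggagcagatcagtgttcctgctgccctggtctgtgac

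Nnat: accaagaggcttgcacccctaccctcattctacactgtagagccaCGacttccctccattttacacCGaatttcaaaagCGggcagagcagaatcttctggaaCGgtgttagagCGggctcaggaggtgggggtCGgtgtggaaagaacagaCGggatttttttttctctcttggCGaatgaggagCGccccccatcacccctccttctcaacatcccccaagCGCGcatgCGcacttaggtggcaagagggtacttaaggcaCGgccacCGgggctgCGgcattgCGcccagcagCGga

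The Igf2 window holds 7 CGs, the Dlk1 window 9 and the Nnat window 17, against a median of 7 over 32851 windows of the same length. As many CGs or more are found in 52.1%, 45.8% and 31.4% of all windows, so none of these stretches is unusual in its count. Igf2 has 4 starts in the table, and the windows of the other 3 hold 2, 14 and 24 CGs. The window shown for Igf2 is the one whose start is that of the transcript in the molecule lists. The RefSeq start of Nnat lies 17 bases after that of its listed transcript. The Dlk1 window does not hold the start of the listed transcript, which lies at chr12:109419235 (GRCm39), downstream of the RefSeq start used here. Letters in a start window say nothing of the imprinting control regions, which lie elsewhere at some of these loci.

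Over all cells, 3 of the 4 genes were lower in the knockout section and Nnat was close to its control level. Igf2 stood at 60520 CPM (60204 to 60837) in the control section and 38101 CPM (37996 to 38205) in the knockout section. Dlk1 stood at 1700 CPM (1647 to 1754) and 1066 CPM (1048 to 1084), and Peg10 at 15212 CPM (15053 to 15371) and 10438 CPM (10383 to 10493). The intervals of these genes did not overlap between the sections, which in either direction held for 75.9% of 486 panel genes and thus sets no gene apart. The log2 ratio of knockout to control was -0.67 (-0.68 to -0.66) for Igf2, -0.67 (-0.72 to -0.62) for Dlk1 and -0.54 (-0.56 to -0.53) for Peg10. Nnat stood at 75175 CPM (74823 to 75529) and 69962 CPM (69821 to 70104), a log2 ratio of -0.10 (-0.11 to -0.10). This interval leaves out 0, but the sign turned in cells with at least 50 transcripts (0.29) and when the first control side was set against either knockout side (0.064 and 0.16).

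Counting error is small in sections of this depth, so the ratios are better read beside those of the other panel genes. Over 486 genes with at least 100 transcripts in each section the median log2 ratio was 0.11, and 5% of genes lay below -0.71 and 5% above 0.94. The members stood at the 6.58 (Igf2), 6.38 (Dlk1), 8.23 (Peg10) and 34.4 (Nnat) percentiles of these ratios. Of the 20 genes closest to each member in level, 3 had a lower ratio than Igf2, 2 than Dlk1, 3 than Peg10 and 8 than Nnat. Igf2 and Dlk1, 2 of the 4 members, were at least 1.5-fold lower in the knockout section, as were 7.00% of all panel genes tested. Over 12 alternative settings Igf2 passed this fold in 6, Dlk1 in 10, Peg10 in 4 and Nnat in 0, so that the call was often lost for Igf2 and gained for Peg10. By pairing of sides Dlk1 ran from -0.35 to -1.09. Igf2, Dlk1 and Peg10 thus sat in the lower tail of the panel without being at its end, and Nnat sat in its body.

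**Figure D1:**
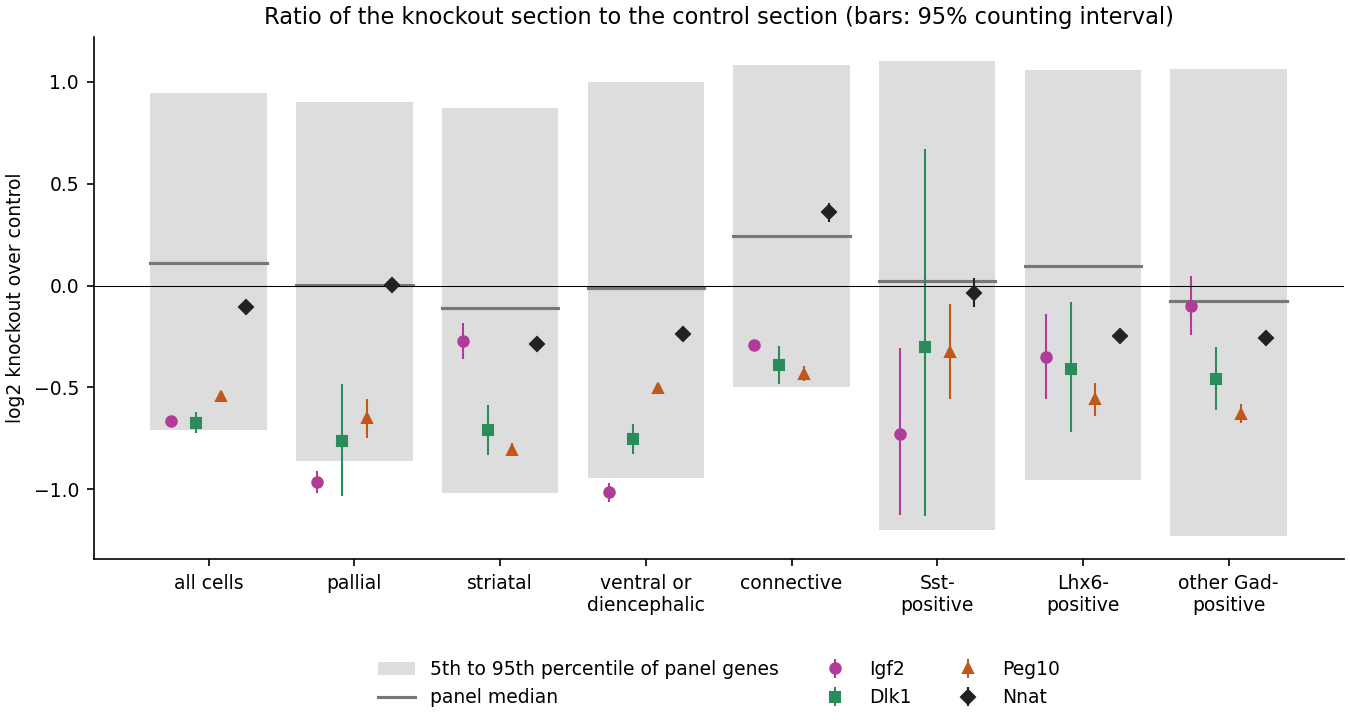
Log2 ratio of the knockout to the control section (y axis) for the 4 genes in all cells, in 4 marker-defined regions and in 3 groups of inhibitory neurons (x axis), with 95% counting intervals as bars, over the 5th to 95th percentile of all panel genes (grey) and their median (grey line). Dlk1 and Peg10 lie below the panel median in all 8 columns, Igf2 runs from -1.02 in the ventral or diencephalic region to -0.10 in other Gad-positive cells, and Nnat is at 0.36 in the connective region, at 0.00 in the pallial region and below 0 in the other columns.

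The tissue was divided by marker genes into a pallial region (Tbr1, Fezf2, Slc17a7, Eomes and Nr4a2), a striatal region (Drd2, Adora2a, Rxrg and others), a ventral or diencephalic region (Slc17a6, Irs4, Calcr and Baiap3) and a connective region around and between the brain lobes (Dcn and other mesenchymal genes). Slc17a6 is also expressed in young cortical neurons. The ventral or diencephalic region also covered an inner band of cortex, whose size was not measured and whose cause was not tested. Igf2 was a gene of the connective region. It stood there at 181134 CPM in the control section and 147913 CPM in the knockout section, and between 2221 and 7598 CPM in the 3 brain regions of both sections. The connective region held 93.0% of all Igf2 transcripts in the control section and 93.5% in the knockout section, from 31.1% and 24.1% of the panel transcripts. The lowest connective level on any side of a section, 143108 CPM, was far above the highest brain level on any side, 9479 CPM.

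**Figure D2:**
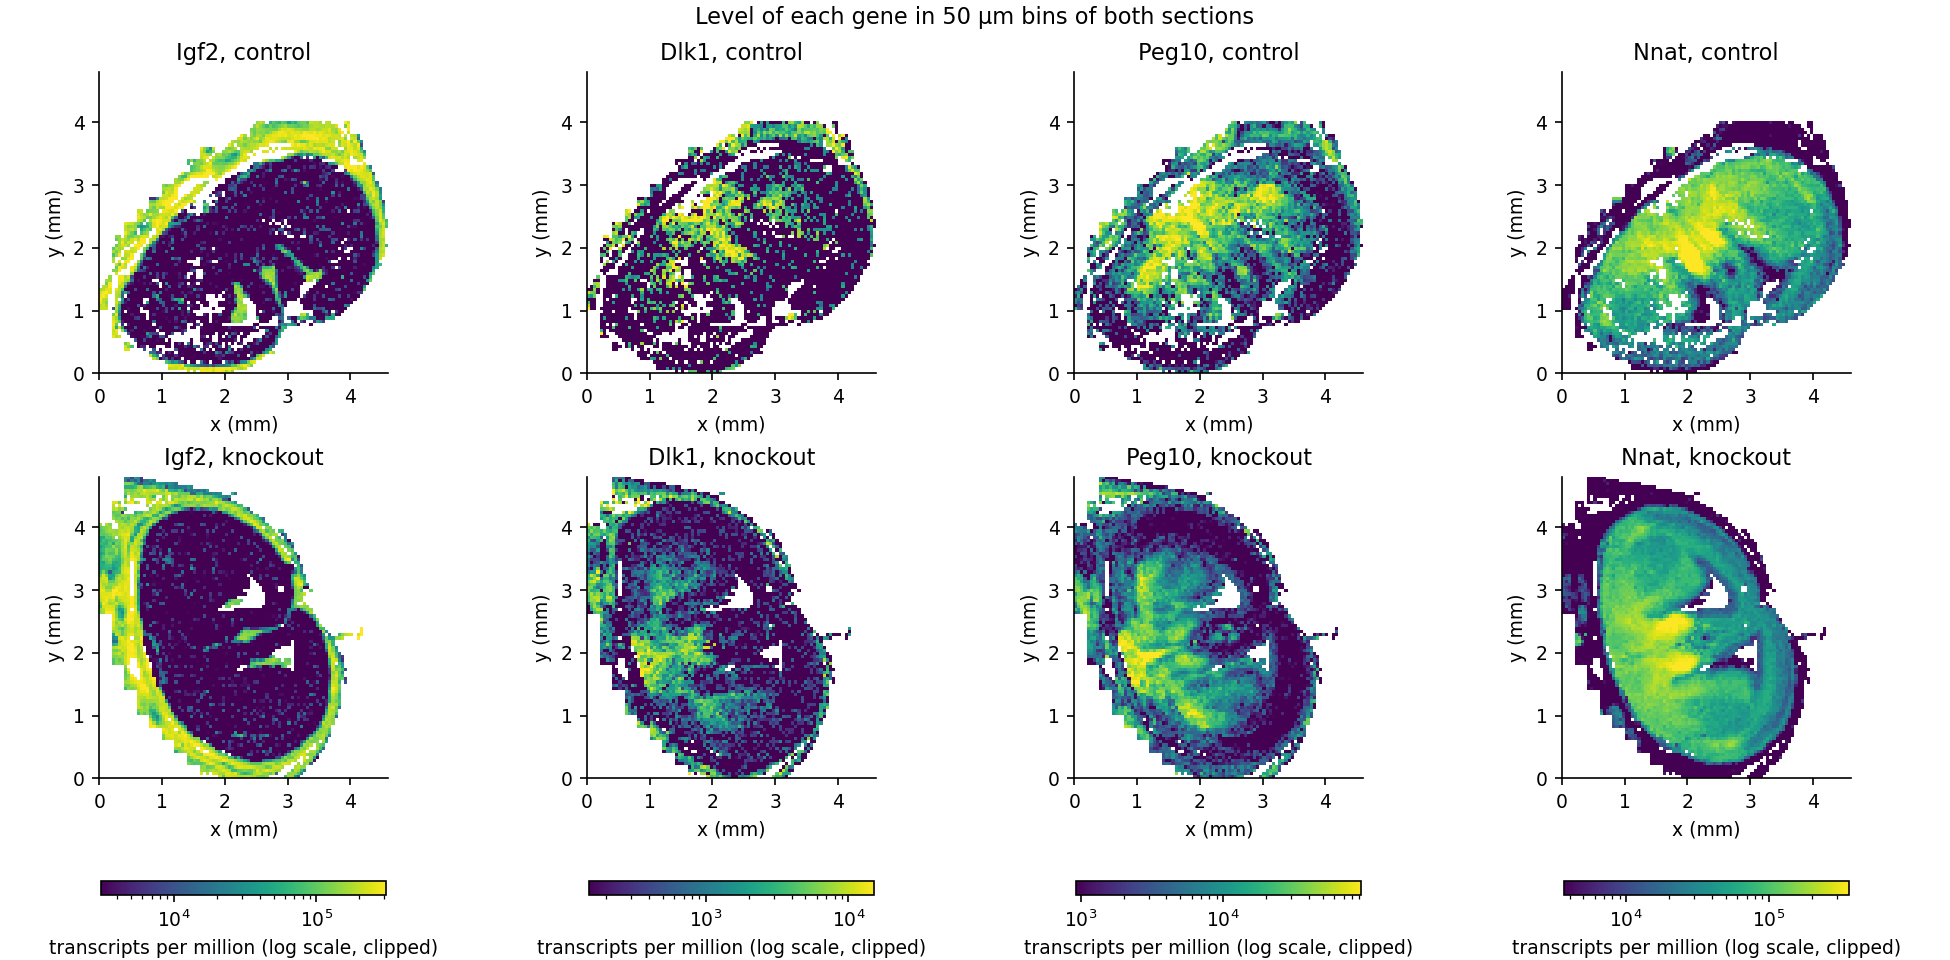
Level of each gene in CPM (colour, log scale, clipped at both ends) in 50 µm bins of the control section (top row) and the knockout section (bottom row), with x and y in mm as the instrument placed them. Igf2 outlines the tissue around the brain and the folds between its lobes (181134 and 147913 CPM in the connective region), Dlk1 and Peg10 fill the ventral and medial brain, and Nnat fills the brain and leaves out the rim (6088 and 7811 CPM).

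Cells were also classed by markers that did not include the members, and a class resting on at least 3 markers is called by its cell type with the ending -like. In the control section the order of Igf2 levels was mesenchymal-like cells (201680 CPM), mural-like cells of the vessel wall (162209), Htr2c-positive cells (108128), microglia- or macrophage-like cells (106394) and endothelial-like cells (94980). The Htr2c-positive and microglia- or macrophage-like levels did not differ beyond their intervals. In the knockout section mural-like cells came first (153864 CPM), followed by mesenchymal-like (148607), Htr2c-positive (105786), microglia- or macrophage-like (83603) and endothelial-like cells (79067), with no overlap of neighbouring intervals. Htr2c, a serotonin receptor gene, is a known marker of choroid plexus, but it was the only marker of that tissue behind the class, and the cells are therefore called by the gene. Mesenchymal-like cells alone held 37.3% of the Igf2 transcripts in the control section and 41.0% in the knockout section.

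Neurons were at the other end of the Igf2 order. Deep-layer neuron-like cells had 1185 CPM in the control section and 537 CPM in the knockout section, and striatal projection neuron-like cells had 1758 and 712 CPM. The median connective cell held 7 Igf2 molecules in the control section and 17 in the knockout section, where cells were imaged more deeply, and the median cell of every brain region held 0. Molecules of a cell can be assigned to its neighbour when boundaries are drawn, and Igf2 in brain cells moved with distance from the cells that hold it. The part of such molecules in the brain levels was not tested. Brain cells that were in none of the vascular-, mesenchymal-like or Htr2c-positive classes had 38970 CPM within 10 µm of such a cell or of the connective region in the control section, and 1402 CPM at 40 to 80 µm. The knockout section gave 9473 and 360 CPM at the same distances. The level was thus lower in the knockout section at every distance, with 1424 against 519 CPM beyond 80 µm. The distances are not alike between the sections, since they run to cells that passed a class call, which shallow cells reach less easily. Beyond 80 µm lay 12365 control and 2485 knockout cells, and uncalled vascular cells can remain among the brain cells. How far this shaped the levels was not tested.

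Microglia- or macrophage-like cells, which occur both inside and outside the brain, also differed by place. Within the connective region they had 141394 CPM of Igf2 in the control section and 121379 CPM in the knockout section. Outside it they had 19075 and 15317 CPM. The class does not part microglia from macrophages, and whether the same kind of cell was counted in both places was not tested. Endothelial-like cells of the knockout section had 129677 CPM in the connective region and 35677 CPM outside it, above the microglia- or macrophage-like cells in both places, so in that section the order of these classes over all cells was not their order within a place. In the connective region of the control section the endothelial-like level (136493 CPM) did not differ from the microglia- or macrophage-like level beyond their intervals.

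**Figure D3:**
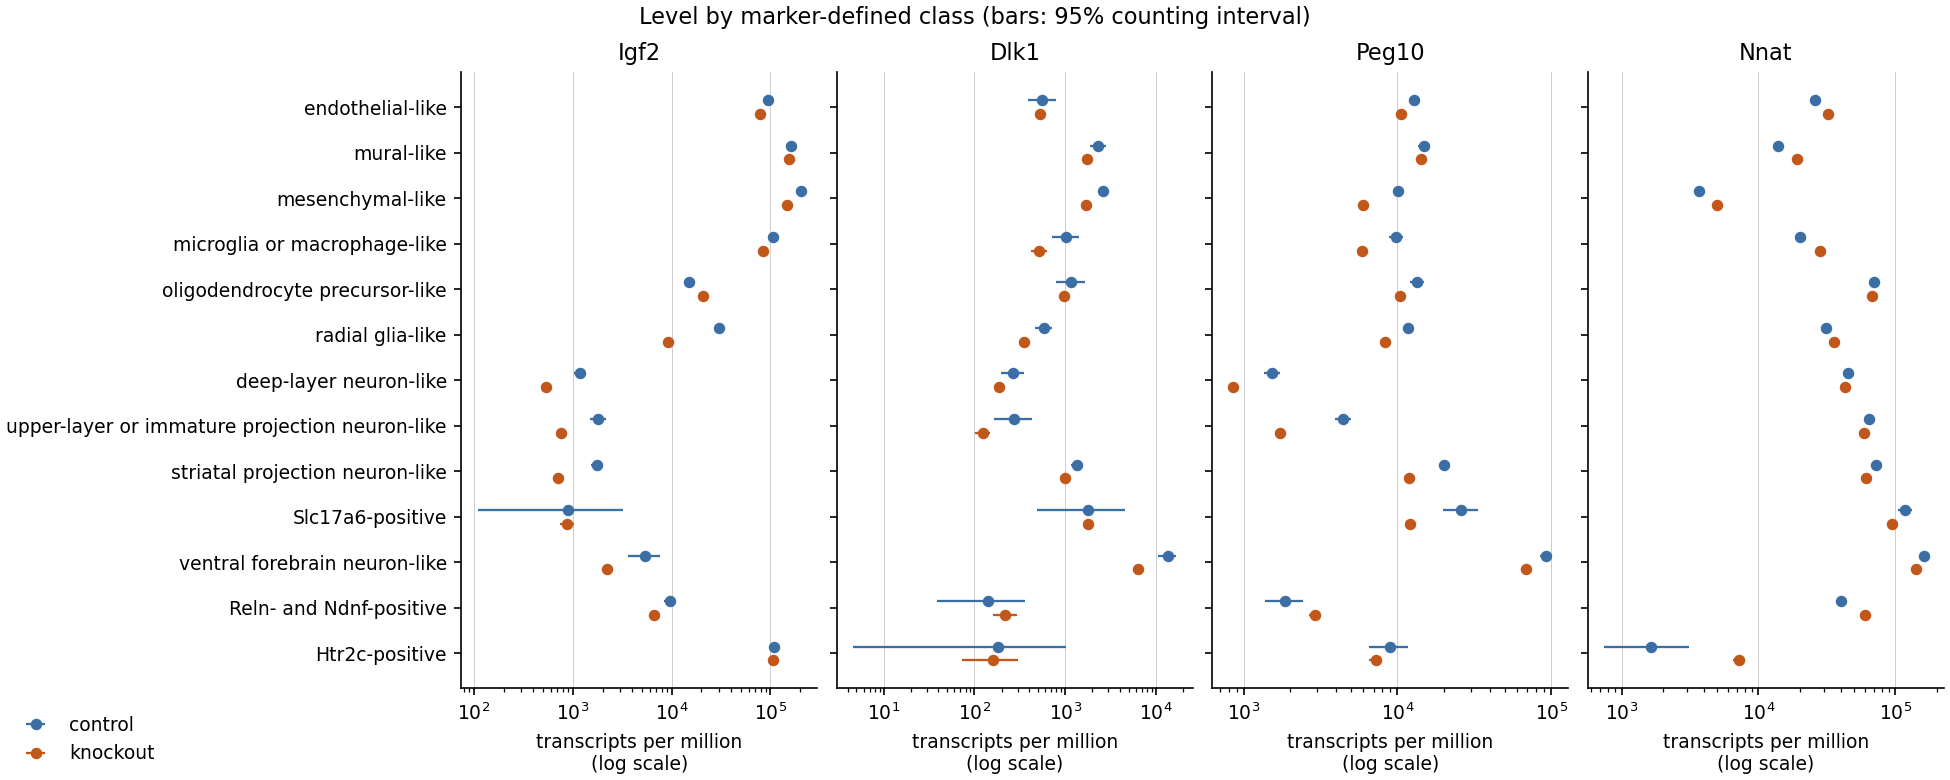
Level of each gene in CPM (x axis, log scale) in 13 marker-defined classes of cells (y axis) of the control section (blue) and the knockout section (orange), with 95% counting intervals as bars. The Eomes-positive class, with 7 control and 565 knockout cells, is not shown. Igf2 is highest in mesenchymal- and mural-like cells (201680 and 162209 CPM in the control section), Dlk1, Peg10 and Nnat are highest in ventral forebrain neuron-like cells (13446, 93044 and 160810 CPM).

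Taken over whole sections, Dlk1 and Peg10 were both highest in the ventral or diencephalic region. Dlk1 stood at 2917 CPM (2787 to 3052) in the ventral or diencephalic region of the control section and 1731 CPM (1689 to 1774) in that of the knockout section, at 1466 and 897 CPM in the striatal region and at 280 and 165 CPM in the pallial region. Peg10 stood at 26295 and 18570 CPM, 21123 and 12078 CPM, and 2250 and 1431 CPM in the same 3 regions. Over whole sections the order of the brain regions was the same for both genes, but on the first control side Peg10 was lower in the ventral or diencephalic region (17933 CPM) than in the striatal region (21360 CPM). On that side Dlk1 stood at 1715 CPM (1578 to 1861) in the ventral or diencephalic region. This overlapped its striatal level of 1504 CPM (1364 to 1655) and lay below its connective level of 2182 CPM (2048 to 2323). The ventral or diencephalic region held 47.5% and 44.6% of the Dlk1 transcripts and 47.9% and 48.8% of the Peg10 transcripts. Both genes were also present in the connective region, Dlk1 at 1757 and 1340 CPM and Peg10 at 10770 and 7974 CPM.

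By class, ventral forebrain neuron-like cells, marked by Irs4, Calcr and Baiap3, had the highest level of both genes. Dlk1 reached 13446 CPM (10576 to 16854) there in the control section and 6372 CPM (6067 to 6688) in the knockout section. Peg10 reached 93044 CPM (85210 to 101404) and 68809 CPM (67798 to 69831). The control value rests on 101 cells and the knockout value on 1193, and a class needs at least 3 marker transcripts, which shallow cells reach less easily. The class held 1.90% of the Dlk1 and 1.47% of the Peg10 transcripts in the control section, and 11.5% and 12.7% in the knockout section. Cells without a class held 68.0% and 71.4% in the control section, and 45.2% and 49.1% in the knockout section. Next came, for Dlk1, mesenchymal-like (2588 and 1712 CPM), mural-like (2309 and 1754 CPM) and Slc17a6-positive cells (1794 and 1795 CPM), whose intervals overlapped in each section. The Slc17a6-positive class had 36 control and 872 knockout cells. Its control Dlk1 level rests on 4 molecules (489 to 4593 CPM). For Peg10, Slc17a6-positive (26009 CPM) and striatal projection neuron-like cells (20203 CPM) followed in the control section with overlapping intervals, whereas in the knockout section mural-like cells (14196 CPM) stood above both (12024 and 11826 CPM). Both genes were near their lowest in deep-layer neuron-like cells, with 266 and 186 CPM of Dlk1 and 1532 and 848 CPM of Peg10. These Dlk1 levels are within or near the range of single blank barcodes.

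A profile of brain cells was also taken by distance from the line between the pallial lobes. It pools dorsal and ventral cells and so does not bear on a ventral place. Within 250 µm of that line Dlk1 stood at 3836 CPM in the control section and 2774 CPM in the knockout section, and at 1750 to 2000 µm it stood at 421 and 166 CPM. Peg10 went from 25772 and 22864 CPM to 2380 and 756 CPM. In the 2 steps from 500 to 1000 µm Peg10 stood at 23135 and 23213 CPM in the control section and 11824 and 10215 CPM in the knockout section. The fall was not steady in the knockout section. Over the same steps Dlk1 rose there from 629 CPM (586 to 674) to 863 CPM (814 to 913), and Peg10 rose to 11562 CPM at 1000 to 1250 µm. The line was placed by the pallial lobes of each section, and it need not cut both at the same anatomical place.

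Nnat was highest in the ventral or diencephalic region, which also covered an inner band of cortex. It stood at 163303 CPM in the ventral or diencephalic region of the control section and 138515 CPM in that of the knockout section, at 95361 and 78127 CPM in the striatal region, and at 43905 and 44045 CPM in the pallial region. In the connective region it was at 6088 and 7811 CPM, the lowest of the 4 regions. By class it ran from 160810 and 141647 CPM in ventral forebrain neuron-like cells, through 117937 and 94400 CPM in Slc17a6-positive cells, to 3670 and 5018 CPM in mesenchymal-like cells and 1633 and 7182 CPM in Htr2c-positive cells. It was also counted in classes other than neurons. Oligodendrocyte precursor-like cells (69952 and 66898 CPM) stood above deep-layer neuron-like cells (44702 and 43024 CPM), and radial glia-like cells had 31249 and 35680 CPM. Microglia- or macrophage-like cells outside the connective region had 59481 and 67002 CPM. Molecules assigned from neighbouring neurons were thus not told apart from expression by glia. In the control section the striatal projection neuron-like (72200 CPM) and oligodendrocyte precursor-like levels did not differ beyond their intervals, and in the knockout section the same held for Reln- and Ndnf-positive (59699 CPM) and upper-layer or immature projection neuron-like cells (59322 CPM). Outward from the line between the pallial lobes Nnat peaked at 250 to 500 µm, at 162567 and 151316 CPM.

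**Figure D4:**
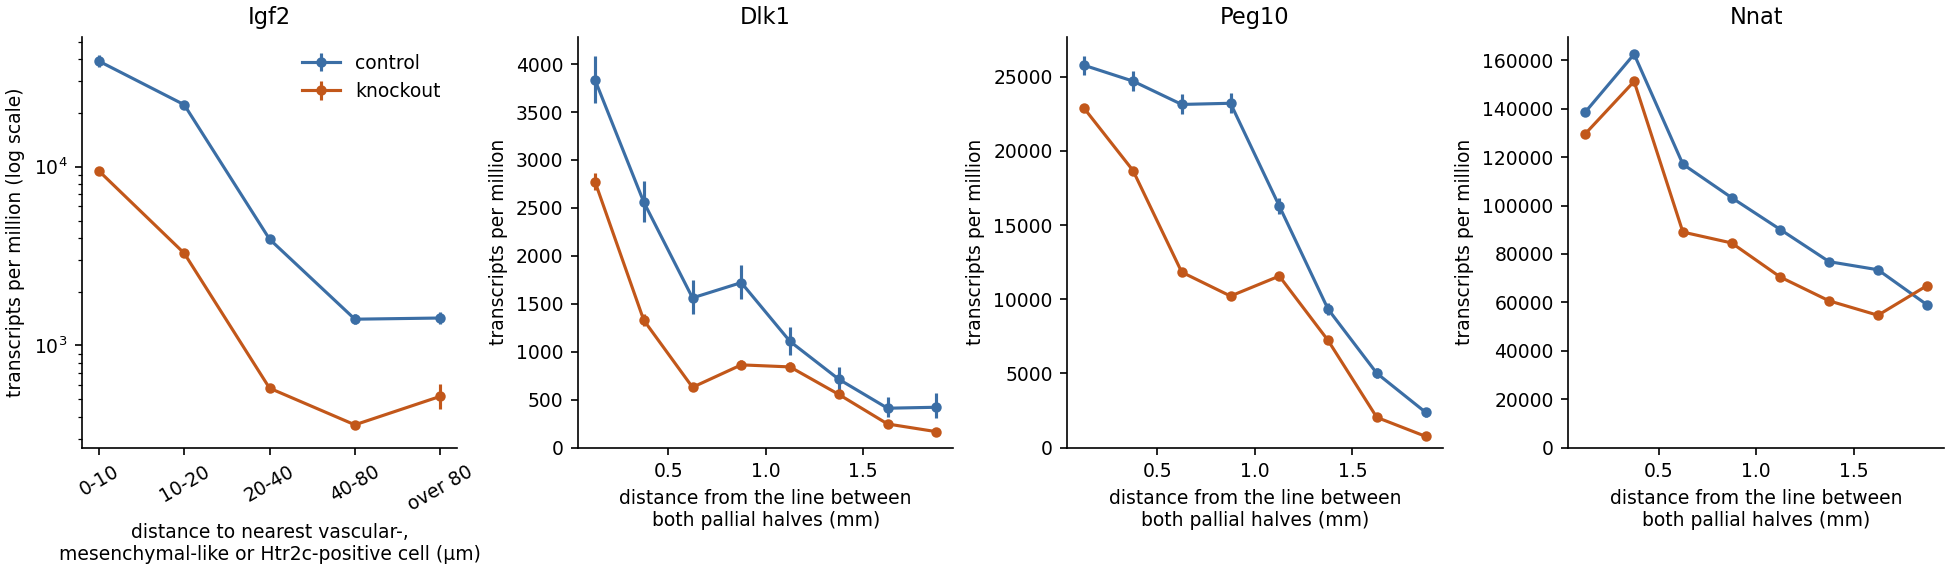
Level in CPM of Igf2 by distance to the nearest vascular-like, mesenchymal-like or Htr2c-positive cell or cell of the connective region (left, log scale), and of Dlk1, Peg10 and Nnat by distance from the line between the pallial lobes (linear scale), in brain cells of the control section (blue) and the knockout section (orange) with 95% counting intervals. Igf2 drops from 38970 to 1402 CPM in the control section and from 9473 to 360 CPM in the knockout section between 0 to 10 and 40 to 80 µm. Dlk1 and Peg10 are lower in the outermost than in the innermost step in both sections, with rises between some steps of the knockout section.

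The spatial patterns were set against those of all panel genes over bins of 100 µm, 1295 in the control section and 1393 in the knockout section. Bins share the depth and tissue of their section, so that the Spearman correlations are a description. The gene most like Dlk1 was Peg10 (0.58 in the control section and 0.62 in the knockout section), and the gene most like Peg10 was Dlk1. Irs4 (0.34 and 0.32), an adaptor of insulin and IGF receptors, and Gpr153 (0.30 and 0.41), an orphan receptor, came next for Dlk1, and Rxrg (0.37 and 0.48), a retinoid receptor, and Calcr (0.36 and 0.37), the calcitonin receptor, for Peg10. Igf2 was most like Creb3l1 (0.75 and 0.79), Dcn (0.76 and 0.72) and Pdgfra (0.71 and 0.76), a transcription factor, a matrix proteoglycan and a growth factor receptor of mesenchyme. Nnat was most like Gad1 (0.79 and 0.85) and Gad2 (0.78 and 0.85), which make the transmitter GABA, and Fxyd6 (0.77 and 0.82), a regulator of ion transport. Within the set Igf2 and Nnat ran opposite (-0.62 and -0.63), and Igf2 was close to unrelated to Dlk1 (0.07 and 0.20) and Peg10 (0.01 and 0.08).

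The connective region took a larger share of the control transcripts, so the ratios were also taken in the brain alone and region by region. Outside the connective region the log2 ratio was -0.92 (-0.95 to -0.89) for Igf2, -0.77 (-0.84 to -0.71) for Dlk1, -0.62 (-0.64 to -0.60) for Peg10 and -0.25 (-0.25 to -0.24) for Nnat, beside a panel median of 0.01. Igf2, Dlk1 and Peg10 (3 members) were at least 1.5-fold lower there, as were 12.1% of 472 panel genes. In the pallial region the ratios were -0.96, -0.76, -0.65 and 0.00 for Igf2, Dlk1, Peg10 and Nnat, with 3 members at least 1.5-fold lower and 12.5% of the panel. Dlk1 was at 280 and 165 CPM there, against up to 262 and 240 CPM for a single blank barcode. Its pallial call thus rests on levels near those of barcodes that match no gene. In the striatal region the ratios were -0.27, -0.71, -0.81 and -0.29, with 2 members (Dlk1 and Peg10) and 17.9% of the panel. In the ventral or diencephalic region they were -1.02, -0.75, -0.50 and -0.24, with 2 members (Igf2 and Dlk1) and 13.4% of the panel. Igf2 of the brain regions is the level that moved with distance to Igf2-rich cells, and its ratio there was the most uneven of the set.

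In the connective region, where Igf2 is abundant, its ratio was -0.29 (-0.30 to -0.28), close to that of the striatal region and nearer to 0 than those of the pallial and the ventral or diencephalic region. Dlk1 was at -0.39 (-0.48 to -0.30), Peg10 at -0.43 (-0.47 to -0.40) and Nnat at 0.36 (0.31 to 0.41), beside a panel median of 0.24. None of the 4 was at least 1.5-fold lower there, and 3.72% of the panel was. Relative to the panel median, Igf2, Dlk1 and Peg10 were lower in all 4 regions (by log2 differences from -0.16 for Igf2 in the striatal region to -1.01 for Igf2 in the ventral or diencephalic region).

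Each section was also cut along the line between the pallial lobes, since the 2 sides give 2 readings from 1 embryo. They are not replicates. In the striatal region both knockout sides lay below both control sides for all 4 genes, which also held for 43.2% of panel genes. Peg10 was the clearest of these, at 20731 and 21360 CPM on the control sides and 11840 and 12345 CPM on the knockout sides. In the pallial region it held for Igf2, Peg10 and Dlk1, the last at levels within or near the range of single blank barcodes, and for 26.4% of the panel. In the connective region it held for Igf2 (181070 and 181173 CPM against 143108 and 156506 CPM) and Peg10, and for 10.2% of the panel.

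In the ventral or diencephalic region both knockout sides lay below both control sides for Igf2 but for no other member, and for 30.7% of the panel. The control sides were far apart there. Dlk1 stood at 1715 CPM on 1 control side and 4239 CPM on the other, a 2.47-fold gap, and at 1721 and 1742 CPM on the knockout sides. Peg10 stood at 17933 and 35490 CPM on the control sides and at 17746 and 19334 CPM on the knockout sides. The lower control side was thus at the level of the knockout sides for Dlk1, Peg10 and Nnat (136370 CPM against 135557 and 141258 CPM), and the differences of this region came from the other control side. Sides were also far apart in other regions. Igf2 of the pallial region stood at 1846 and 5264 CPM on the knockout sides, a 2.85-fold gap. Dlk1 of the connective region stood at 1047 and 2182 CPM on the control sides and at 923 and 1574 CPM on the knockout sides. Whether the sides of a section lie at the same anatomical level was not tested.

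**Figure D5:**
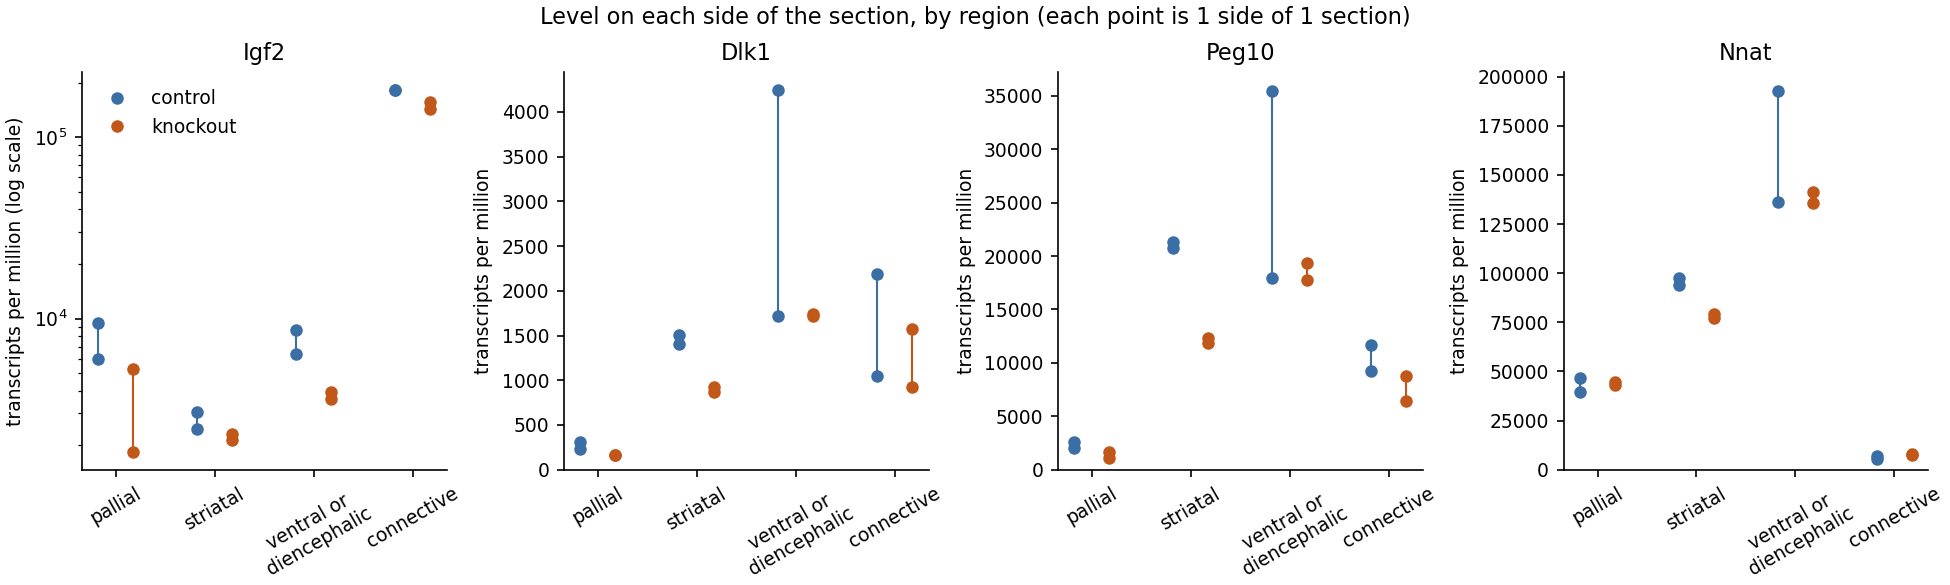
Level in CPM (y axis, log scale for Igf2 and linear for the others) of each gene on each side of the control section (blue) and the knockout section (orange), by region (x axis), with a line joining both sides of a section. The sides of a section lie close together in the striatal region, where Peg10 is at 20731 and 21360 CPM against 11840 and 12345 CPM, and the control sides are far apart for Dlk1 (1715 and 4239 CPM) and Peg10 (17933 and 35490 CPM) in the ventral or diencephalic region.

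Within the classes, Peg10 was lower in the knockout section in striatal projection neuron-like cells (20203 to 11826 CPM, log2 ratio -0.77, -0.83 to -0.71), deep-layer neuron-like cells (-0.85, -1.05 to -0.65), upper-layer or immature projection neuron-like cells (4427 to 1718 CPM, -1.37, -1.55 to -1.18) and mesenchymal-like cells (-0.75, -0.81 to -0.68). It was near even in mural-like cells (-0.06, -0.19 to 0.06) and higher in Reln- and Ndnf-positive cells (1845 to 2903 CPM, 0.65, 0.24 to 1.09). Dlk1 was lower in ventral forebrain neuron-like cells (-1.08, -1.41 to -0.72) and mesenchymal-like cells (-0.60, -0.72 to -0.47), and its interval included 0 in endothelial-like (-0.64 to 0.47) and oligodendrocyte precursor-like cells (-0.79 to 0.35). Nnat was at -0.24 (-0.27 to -0.21) in striatal projection neuron-like cells and -0.06 (-0.09 to -0.02) in deep-layer neuron-like cells, and higher in mesenchymal-like (0.45, 0.35 to 0.55) and Reln- and Ndnf-positive cells (0.59, 0.50 to 0.68). The share of cells left without a class was 63.4% in the control section and 44.6% in the knockout section, so that a class drew on different parts of the depth range. Ratios of the other panel genes were not taken by class. How many of them moved as far within a class is therefore not known, and the class ratios set no gene apart.

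The Igf2 ratio between the sections differed widely by class. It too was taken by class without the ratios of the other panel genes beside it. The log2 ratio was -0.08 (-0.11 to -0.04) in mural-like, -0.03 (-0.15 to 0.09) in Htr2c-positive, -0.26 (-0.31 to -0.22) in endothelial-like and -0.44 (-0.45 to -0.43) in mesenchymal-like cells. It was -1.14 (-1.37 to -0.91) in deep-layer neuron-like, -1.30 (-1.52 to -1.08) in striatal projection neuron-like and -1.73 (-1.78 to -1.68) in radial glia-like cells. Upper-layer or immature projection neuron-like cells were at -1.25 (-1.53 to -0.95) and ventral forebrain neuron-like cells at -1.27 (-1.80 to -0.69). The ratio was -0.52 (-0.71 to -0.32) in Reln- and Ndnf-positive cells and 0.46 (0.31 to 0.61) in oligodendrocyte precursor-like cells, and the latter were at -1.67 (-1.95 to -1.39) outside the connective region. Slc17a6-positive cells held 2 control molecules and give no usable ratio. Radial glia-like cells outside the connective region stood at 10309 CPM in the control section and 1135 CPM in the knockout section. Htr2c was among the 10 leading genes of that class in the control section, and a split by Htr2c was therefore made after these values were seen. The 145 control cells with an Htr2c transcript (4.05% of them) had 109662 CPM and the 58 knockout cells (0.740%) had 40720 CPM, and without such cells the levels were 4869 and 737 CPM. The direction was the same without them, and the difference was smaller. The median radial glia-like cell held 32 transcripts in the control section and 91 in the knockout section. An Htr2c transcript is thus missed more easily in control cells, and the remaining levels need not be free of such cells.

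Somatostatin cells are those in which Cre can act, and they were taken as cells with at least 2 Sst transcripts, 278 in the control section and 1825 in the knockout section. At median depths of 46 and 192 transcripts this fixed gate asked for a larger Sst share in control than in knockout cells. Sst itself was at a log2 ratio of -1.41 within it, which follows in part from the gate, and of -0.06 over all cells. The cells taken in each section thus need not be alike. All 4 genes were found in them. Nnat stood at 103583 CPM (98562 to 108792) in the control section and 101090 CPM (100107 to 102080) in the knockout section, a log2 ratio of -0.04 (-0.11 to 0.04). Peg10 stood at 10514 CPM (8957 to 12264) and 8376 CPM (8095 to 8664), a ratio of -0.33 (-0.56 to -0.09). This direction was lost when the first control side was taken alone, at 0.11 and 0.00300 against the knockout sides, whereas the second control side gave -0.87 and -0.98. Dlk1 stood at 779 CPM and 633 CPM, from 12 and 253 molecules, and its ratio of -0.30 (-1.13 to 0.67) could not be told from 0 at this depth. Igf2 stood at 3505 CPM (2633 to 4573) and 2113 CPM (1973 to 2260), a ratio of -0.73 (-1.13 to -0.31) from 54 control molecules. It was the only member at least 1.5-fold lower, as were 15.6% of 212 panel genes. By region Igf2 was lower in the pallial cells, at 3316 and 983 CPM (-1.75, -2.56 to -0.85, from 15 control molecules). The interval included 0 in the striatal (1388 and 1453 CPM, 0.07, -0.999 to 1.40) and the ventral or diencephalic cells (1660 and 1908 CPM, 0.20, -0.75 to 1.35). The gate did not require a Gad1 or Gad2 transcript. The call for Igf2 was lost in cells with Gad1 or Gad2 as well (-0.53), outside the connective region (-0.45) and in cells with at least 3 Sst transcripts (-0.023). It held in 8 of 14 alternatives.

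Peg10 in Sst-positive cells depended on the region. In the ventral or diencephalic region it stood at 7560 CPM in 101 control cells and 11052 CPM in 615 knockout cells, a log2 ratio of 0.55 (0.10 to 1.03). In the striatal region it stood at 21606 and 10126 CPM, a ratio of -1.09 (-1.37 to -0.80), and in the pallial region at 2653 and 1169 CPM, a ratio of -1.18 (-2.05 to -0.18) from 12 control molecules. Dlk1 was not counted in any of the 63 pallial Sst-positive cells of the control section, which by its interval allows up to 815 CPM, and it stood at 197 CPM in the 370 of the knockout section, so that no difference was detectable at this depth. Nnat stood at 117463 and 116240 CPM in the ventral or diencephalic region and 90407 and 91139 CPM in the pallial region, with intervals of the ratio that included 0, and at 105055 and 95379 CPM in the striatal region, a ratio of -0.14 (-0.26 to -0.01).

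Lhx6-positive cells, which had at least 2 Lhx6 transcripts, a Gad1 or Gad2 transcript and no Sst transcript, are inhibitory neurons in which the Cre driver was not counted. There were 1490 in the control section and 8724 in the knockout section. Peg10 stood at 17872 CPM (16930 to 18852) and 12134 CPM (11953 to 12318), a log2 ratio of -0.56 (-0.64 to -0.48), and Nnat at 140370 and 118084 CPM, a ratio of -0.25 (-0.28 to -0.22). Igf2 was at -0.35 (-0.56 to -0.14) and Dlk1 at -0.41 (-0.72 to -0.08). None of the 4 was at least 1.5-fold lower, and 13.7% of 365 panel genes were. Over 13 alternatives Peg10 passed that fold in 6, Igf2 in 3 (down to -1.25 with thinning) and Dlk1 in 2. In other Gad-positive cells (3663 and 17227), which had at least 2 Gad1 or Gad2 transcripts and no Lhx6 or Sst, the ratios were -0.10 (-0.24 to 0.05), -0.46 (-0.61 to -0.30), -0.63 (-0.67 to -0.58) and -0.26 (-0.28 to -0.24) for Igf2, Dlk1, Peg10 and Nnat, with 1 member (Peg10) and 24.5% of the panel at least 1.5-fold lower. The gates of Lhx6-positive and other Gad-positive cells were fixed as well, at median depths of 43 and 138 and of 41 and 123 transcripts. Lhx6 was at -0.99 within the first and Gad1 at -1.40 within the second. Over all regions the ratio of Peg10 was closest to 0 in the Sst-positive cells (-0.33, against -0.56 and -0.63), and so was that of Nnat (-0.04, against -0.25 and -0.26). Region by region this did not hold for Peg10, and other directions turned as well. Nnat was at 0.29 (0.14 to 0.44) in pallial Lhx6-positive cells and at 0.10 (0.08 to 0.13) in other Gad-positive cells of the ventral or diencephalic region, and Igf2 was at 0.51 (-0.10 to 1.19) in striatal Lhx6-positive cells. In the striatal region Peg10 was at -1.09 in Sst-positive, -0.42 in Lhx6-positive and -0.998 in other Gad-positive cells, in the pallial region at -1.18, -0.35 and -1.16, and in the ventral or diencephalic region at 0.55, -0.49 and -0.18. The difference between these groups of cells was not tested.

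To take out place, each group was set against the other cells of the same 100 µm bins. Nnat of Sst-positive cells was at its neighbours' level in the control section (log2 ratio to neighbours 0.02, -0.05 to 0.09) and slightly above it in the knockout section (0.16, 0.15 to 0.18). Peg10 was at -0.09 (-0.33 to 0.13) and -0.13 (-0.18 to -0.09), and Dlk1 at 0.00 (-0.95 to 0.81) and -0.17 (-0.35 to 0.01). Igf2 was well below its neighbours in both sections, at -1.59 (-2.00 to -1.20) and -1.74 (-1.84 to -1.64). The intervals of the sections thus overlapped for Igf2, Dlk1 and Peg10 and not for Nnat, beside 9.43% of 212 panel genes without overlap in either direction, and the Dlk1 value of the control section rests on 12 molecules. In Lhx6-positive cells, where 12.3% of 365 panel genes had no overlap, the intervals overlapped for Igf2 (-1.99 and -2.05) and Peg10 (-0.31 and -0.32). They did not overlap for Dlk1, at -0.65 (-0.97 to -0.35) in the control section and -0.23 (-0.31 to -0.15) in the knockout section, or for Nnat, at -0.03 (-0.06 to 0.00) and 0.09 (0.08 to 0.10). In other Gad-positive cells, where 15.1% of 458 panel genes had no overlap, the intervals of the 4 members overlapped for Peg10 alone (0.06 and 0.07). Igf2 was at -1.60 (-1.74 to -1.45) and -0.98 (-1.01 to -0.94), Dlk1 at -0.17 (-0.32 to -0.02) and 0.08 (0.04 to 0.13), and Nnat at -0.02 (-0.04 to 0.00) and 0.04 (0.04 to 0.05).

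Shares of cells with a transcript were compared after each cell was thinned to 25 transcripts, which leaves out shallower cells. Igf2 was found in 28.8% of control cells and 20.4% of knockout cells, Dlk1 in 3.85% and 2.33%, Peg10 in 23.1% and 16.7% and Nnat in 58.9% and 61.5%. Without thinning the shares were 28.1% and 26.5% for Igf2, 5.61% and 8.93% for Dlk1 and 29.4% and 38.4% for Peg10, and the order of the sections was turned for Dlk1 and Peg10. In Sst-positive cells the thinned shares were 4.67% and 2.96% for Igf2, 2.33% and 1.21% for Dlk1, 16.7% and 12.5% for Peg10 and 89.1% and 88.9% for Nnat, and their 95% intervals overlapped for each gene. Microglia- or macrophage-like cells of the pallial region, taken as the background, had Igf2 in 38.8% and 26.9%, Peg10 in 10.4% and 8.17% and Nnat in 43.3% and 45.7% of cells. Their median depth was 40.5 and 122 transcripts, against 46 and 192 in Sst-positive cells. Dlk1 was found in 0 of 67 and 0 of 208 of them, which allows a share of up to 5.36% and 1.76%. This class is itself among those with much Igf2, so it gives no floor for that gene and the Igf2 share is not read against it. The Nnat share of Sst-positive cells is far above this background, whereas the intervals of the Peg10 shares overlap it in both sections. The background is that of the pallial region, where Peg10 is low and Nnat is the lowest of the brain regions. Most Sst-positive cells lay in the striatal and ventral or diencephalic regions, which limits both readings.

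The molecule lists also give RNA that fell in no segmented cell. Igf2 was among the genes with the most of it, with 28.0% of molecules outside cells in the control section and 25.1% in the knockout section, against panel medians of 16.7% and 18.1%. Dlk1 was among those with the least, at 9.85% and 12.1%. Peg10 was above the panel median in both sections (22.7% and 24.0%), and Nnat was above it in the control section and below it in the knockout section (15.4%).

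Few relatives of these genes were on the panel. Of 50 other imprinted genes listed, 3 were present, namely Ddc, a decarboxylase of amine transmitters (197 and 261 CPM, log2 ratio 0.40), Calcr (231 and 219 CPM, -0.07) and Dcn (15196 and 16187 CPM, 0.09). None of the 3 was at least 1.5-fold lower, beside 7.00% of the panel, a share at which 3 genes can show nothing about the group. Of 17 genes of the IGF system, 3 were present. The receptor gene Igf1r was near even (9762 and 9508 CPM, -0.04), as was Irs4 (542 and 543 CPM, 0.00), whereas Igfbp5, which encodes a binding protein for IGFs, was at 12917 CPM in the control section and 5203 CPM in the knockout section (-1.31, -1.33 to -1.29). Of 14 Notch ligands, receptors and targets, 0 were on the panel, so the setting in which Dlk1 acts could not be described.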

How the data were processed

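MERFISH counts of 500 genes and 50 blank barcodes per segmented cell, cell centres and volumes, and lists of decoded molecules were used as deposited for 1 control and 1 knockout section. Decoding, segmentation and counting were done on the instrument by the authors, and the deposited counts are raw transcripts per cell. The segmentation model and software version are not given in the sources used here. Only cells holding 20 panel transcripts or more entered the sums. Counts were summed over cells of a group, region or class and given as CPM with exact intervals.

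Sst-positive cells had at least 2 Sst transcripts. Regions were drawn from markers in 50 µm bins after Gaussian smoothing (SD 50 µm). A class required at least 3 marker transcripts from at least 2 markers where its list allowed and at least 3 times the section share. Doublets were not called. Shares were taken after thinning to 25 transcripts. Ratios were set beside panel genes with at least 100 transcripts in each section (10 in a group of inhibitory neurons). Ratios by class, or by region within such a group, were not. Intervals were computed with scipy (version 1.17.1), on arrays held in numpy (version 2.4.6) and tables held in pandas (version 2.3.3), under Python (version 3.11.15), and the scripts were tested on simulated data. The rule names the members and uses no measured value, but it was written, and the lists were chosen, with earlier results of these data known. The genes named are the members, the 3 panel genes most like each in pattern, and the panel genes of the lists of imprinted, IGF and Notch genes, and Htr2c and the region and class markers are named beside them. Alternatives were the cell minimum, thinning, centring, cell volume, sides, all molecules, 1 imaging plane, gates, classes, regions and bins. Mouse annotation was GRCm39 and the start sequences came from RefSeq on GRCm38.p6.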

Additional observations from a re-analysis of the deposited data

Results flagged for a closer look

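Peg10 in Sst-positive cells differed in direction between regions. The log2 ratio of knockout to control was 0.55 in the ventral or diencephalic region and -1.18 in the pallial region, a gap of 1.73 on the log2 scale. The pallial control value rests on 12 molecules in 63 cells, and the ventral control side differed from the other control side by 1.98-fold for Peg10 over all cells of that region. This difference between regions was not tested.

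Nnat over all cells was higher in the knockout section in the connective region (0.36) and lower in the striatal region (-0.29), a gap of 0.65 on the log2 scale. The panel median moved the same way, from 0.24 in the connective region to -0.11 in the striatal region. This difference was not tested.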

How the results depend on the processing

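No paired analysis was possible because each genotype had 1 section. Values below are log2 ratios of knockout to control. Over all cells, Igf2, Dlk1 and Peg10 stayed below 0 in all 12 alternatives, with ranges of -1.26 to -0.38, -1.09 to -0.34 and -0.91 to -0.25, and Nnat was below 0 in 9 of 12, from -0.42 to 0.29. Given in the order Igf2, Dlk1, Peg10 and Nnat, the minimum of 50 transcripts per cell gave -1.26, -0.60, -0.39 and 0.29, thinning of the knockout section to the control depth gave -0.57, -0.62, -0.51 and -0.11, subtraction of the panel median gave -0.78, -0.78, -0.65 and -0.21, and cells outside the connective region gave -0.92, -0.77, -0.62 and -0.25, the last chosen after the data were seen. The first control side gave -0.54, -0.35, -0.25 and 0.064 against the first knockout side, and -0.98 (Igf2), -0.40 (Peg10) and 0.16 (Nnat) against the second. The second control side gave -0.38, -0.75, -0.76 and -0.42 against the first knockout side and -0.82, -1.09, -0.91 and -0.32 against the second. With no minimum Igf2 was at -0.49, Peg10 at -0.52 and Nnat at -0.12, without the largest cells Igf2 was at -0.61 and Nnat at -0.13, over all decoded molecules Igf2 was at -0.54, Peg10 at -0.49 and Nnat at -0.20, and in imaging plane 0 Igf2 was at -0.42, Dlk1 at -0.34 and Nnat at -0.35.

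In Sst-positive cells Igf2 was below 0 in 14 of 14 alternatives (-1.68 to -0.023), Dlk1 in 10 (-1.32 to 0.62), Peg10 in 12 (-1.24 to 0.11) and Nnat in 11 (-0.19 to 0.045). Peg10 was at 0.11 and 0.00300 for the first control side against the first and second knockout sides, and at -0.87 and -0.98 for the second control side. In the same pairings Igf2 was at -0.19 (first against second) and -1.45 (second against first), Dlk1 at -1.32 (second against second) and Nnat at -0.12 (second against first). The minimum of 50 gave -0.010 for Peg10 and 0.045 for Nnat, thinning gave -1.68 for Igf2 and -1.24 for Peg10, at least 1 Sst transcript gave -0.19 for Nnat, at least 3 gave -0.023 for Igf2 and -0.036 for Peg10, and the gate on thinned cells gave -0.18 for Nnat. The sign in these cells is therefore not settled for Dlk1, Peg10 or Nnat, nor the size for any of the 4.

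In Lhx6-positive cells all 4 genes were below 0 in all 13 alternatives (Igf2 -1.25 to -0.15, Dlk1 -0.97 to -0.21, Peg10 -0.91 to -0.45, Nnat -0.34 to -0.16), taken over all regions. The minimum of 50 gave -0.71 for Igf2 and -0.16 for Nnat, thinning -1.25 for Igf2 and -0.72 for Peg10, and subtraction of the panel median -0.65 for Peg10 and -0.34 for Nnat. Peg10 and Nnat were at -0.45 and -0.19 for the first control side against the second knockout side, at -0.74 and -0.34 for the second against the first, and at -0.68 and -0.29 for the second against the second. At least 1 Lhx6 transcript gave -0.85 (Dlk1), -0.71 (Peg10) and -0.33 (Nnat), at least 3 gave -0.22 (Nnat), and the gate on thinned cells gave -0.81, -0.97, -0.91 and -0.21 for the 4 genes. The cause of these shifts was not tested. The share of Sst-positive control cells with at least 2 Dlk1 transcripts was 0 after thinning.

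Of 32 log2 levels by gene, region and section, 24 moved beyond their counting interval with smoothing over 100 µm (by up to 1.08), 20 without Slc17a6 in the region list (by up to 0.62) and 14 with no minimum (by up to 0.26). Of the log2 levels by class, 51 of 105 moved with at least 5 marker transcripts, 56 of 110 with 6 times the section share, 44 of 107 with thinning and 26 of 108 with the minimum of 50, by up to 1.70, 1.63, 1.999 and 1.32.

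The main limits are 1 section per genotype, a control section at a median of 20 transcripts per cell against 101, and marker-based regions that need not match between sections. With bins of 50 µm, Dlk1 and Peg10 were still the genes most like each other (0.47 and 0.53).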

Other observations

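The rate at which decoded molecules thinned out from the first to the last imaging plane differed between sections and genes. Molecules in plane 6 were 7.02% of those in plane 0 for Igf2 in the control section and 16.4% in the knockout section, against panel medians of 19.6% and 39.1%. Dlk1 stood at 35.9% and 51.6% and Peg10 at 32.8% and 57.9%.

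Per cell, the highest Igf2 count was 90 molecules in the control section and 201 in the knockout section, and the highest Nnat count was 57 and 313. The median ventral forebrain neuron-like cell held 3 and 10 Peg10 molecules and 7 and 26 Nnat molecules. The highest Peg10 count of any cell, 42 and 123, was found among them.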
